A study of Mus musculus with 22 samples.

Results

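The 10 genes described here encode the core machinery of macroautophagy and its best known cargo receptor: Ulk1, Becn1, Atg5, Map1lc3a, Map1lc3b, Gabarap, Gabarapl1, Gabarapl2, Sqstm1 and Tfeb. They were chosen by name and not by a cut-off on their measured values, though earlier results of these data were known. All 10 are among the 12596 genes of the deposited table. The samples were 22 RNA sequencing libraries from 11 mice of a study of tyrosinase and neuromelanin in the locus coeruleus, the noradrenergic nucleus of the hindbrain. All animals came from a cross of Th-cre mice with Slc6a2-eGFP/Rpl10a mice, on a background given as C57Bl/6. Slc6a2 encodes the noradrenaline transporter, and its transgene puts a green fluorescent tag on the ribosomal protein Rpl10a in noradrenergic cells, so that ribosomes of those cells can be pulled down with the RNA on them. Each animal gave an immunoprecipitated library (IP), labelled noradrenergic, and a library named Pre in its title, labelled total hindbrain (input). The groups were hTyr IP and hTyr input, from 5 animals infused with hTyr, and EYFP IP and EYFP input, from 6 animals infused with EYFP. hTyr stands for human tyrosinase, the enzyme that starts pigment synthesis, and EYFP is the fluorescent protein of the control animals. The sources used here do not give the animals' age or sex, or the time between infusion and sampling. Libraries are named as in their titles, so that IP_501 and Pre_501 come from the same animal. The hTyr values below are given in the order IP_501, IP_502, IP_508, IP_509 and IP_510, and likewise for Pre.

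In macroautophagy a double membrane closes around cytoplasm or a damaged organelle and then fuses with a lysosome, which breaks the contents down. The kinase Ulk1 starts the process when nutrients or energy run short, Becn1 serves the lipid kinase complex that marks the site, and Atg5 is part of the conjugate that attaches the ubiquitin-like ATG8 proteins to the growing membrane. The ATG8 family has an LC3 branch (Map1lc3a, Map1lc3b) and a GABARAP branch (Gabarap, Gabarapl1, Gabarapl2). Sqstm1, also called p62, ties ubiquitinated cargo to ATG8 proteins and is itself degraded with it, and Tfeb is a transcription factor for lysosomal and autophagy genes. In the locus coeruleus of ageing people, neuromelanin is stored in lysosome-like organelles with a membrane, and autophagy is known to contribute to their formation. RNA levels alone do not measure the flow of cargo through this pathway.

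The upstream sequences of Sqstm1 and Atg5 are shown because Sqstm1 was the only member higher in IP than in input and Atg5 had the lowest p-value of the members between treatments. Each line gives the 250 bases before the RefSeq start site on GRCm38.p6, 5′ to 3′ on the gene's strand, with the letters of a searched motif in capitals.
Sqstm1: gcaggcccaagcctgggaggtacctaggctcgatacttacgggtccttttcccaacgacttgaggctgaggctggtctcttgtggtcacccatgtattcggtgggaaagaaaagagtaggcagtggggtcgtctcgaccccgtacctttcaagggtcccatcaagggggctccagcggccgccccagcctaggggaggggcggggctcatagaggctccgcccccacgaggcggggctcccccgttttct
Atg5: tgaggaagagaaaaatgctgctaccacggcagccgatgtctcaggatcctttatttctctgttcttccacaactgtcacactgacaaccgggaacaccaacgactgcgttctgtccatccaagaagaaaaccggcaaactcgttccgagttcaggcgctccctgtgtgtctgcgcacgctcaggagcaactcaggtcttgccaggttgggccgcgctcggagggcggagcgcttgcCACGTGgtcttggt
The Sqstm1 stretch lies at chr11:50210821-50211070 on the minus strand, and the Atg5 stretch at chr10:44268089-44268338 on the plus strand. They are 63.2% and 56.4% G or C, with 14 and 17 CG pairs. The capitals in Atg5 mark the E-box CACGTG, the core of the sites that bind Tfeb and many other factors, from 14 to 9 bases before the start site. This motif reads the same on both strands, and 9.80% of the RefSeq promoters of genes in the table hold it within 300 bases (250 before to 50 after the start site). Promoters of that length were found for 8 of the 10 members, all but Map1lc3a and Becn1, and Atg5 was the only member of the 8 with a CACGTG. Within these 300 bases, Map1lc3b was the only member of the 8 with a match to the antioxidant response motif, searched as TGACNNNGC on both strands. The match lies at bases 4 to 12 after the start site, and 14.1% of the table's promoters hold that motif. Sequence further upstream was not searched. The longer Tfeb motif TCACGTGA, which contains the E-box, and the amino acid response motif TGATGNAA were found in none of the 8, beside 1.82% and 2.08% of the table's promoters. A match is a string of letters and not evidence of binding.

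Depth was 12654489 to 25100142 reads per library in the table, and each member had at least 230 reads in every library. The IP libraries carried the labelled cell type: on the log2 scale Th, the enzyme that makes L-DOPA, was higher in IP than in input by 1.99 in EYFP and 2.78 in hTyr animals, Dbh, the enzyme that makes noradrenaline, by 4.02 and 4.30, and Slc6a2 by 3.94 and 4.47. Slc6a2 averaged 2.12 log2 CPM in hTyr input and 3.03 in EYFP input, and 6.59 and 6.97 in IP. Its larger rise in hTyr animals thus goes with a lower level in input. At an adjusted p under 0.05 (limma), 1 of the 9 noradrenergic markers was lower in hTyr than in EYFP input. Between IP and input, all 9 noradrenergic markers were higher in IP in both treatments (limma, adjusted p under 0.05). Their summed level was 571 to 1920 CPM (reads scaled to the library's size) in IP and 164 to 209 in input. RNA of other cells was still present in IP: 8 oligodendrocyte markers summed to 6000 to 8400 CPM, beside 6600 to 9190 in input, and 8 astrocyte markers to 2750 to 4070 CPM, beside 2330 to 2980. At an adjusted p under 0.05 (limma), 4 astrocyte markers in EYFP and 5 in hTyr animals were higher in IP, and 1 in each was lower. Of 11 markers of other neurons, 7 and 6 were higher and 0 lower, with medians of 0.33 and 0.35. Of all genes, 28.5% and 27.4% were higher. Oligodendrocyte markers had 1 and 2 higher and 4 lower in each. A higher level in IP was thus not particular to noradrenergic genes. No marker of these lists was at 0 reads. Their part in the values of the autophagy genes was not tested, except through the covariates named below.

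Compared per length of the principal transcript, the ATG8 genes and Sqstm1 were the most abundant members and Tfeb the least. In EYFP IP, Gabarapl1 stood at 531 ± 59.5 CPM per kilobase (SD, n = 6), followed by Map1lc3a at 349 ± 42.4 and Sqstm1 at 341 ± 34.6, which overlapped. Gabarap came next at 169 ± 15.8, then Gabarapl2 at 134 ± 11.3 and Map1lc3b at 132 ± 10.8, which overlapped too. The machinery upstream of the ATG8 proteins was lower, with Becn1 at 23.0 ± 2.70 and Ulk1 at 21.0 ± 0.983, again overlapping, and Atg5 at 13.9 ± 1.04. Tfeb closed the order at 9.96 ± 0.865 CPM per kilobase. With this length the means of Sqstm1 and Map1lc3a were in the other order in hTyr IP, at 396 ± 49.0 and 358 ± 55.9 CPM per kilobase (SD, n = 5), and their ranges overlapped. Per length of the longest transcript, the order of these genes was the same in both IP groups: Map1lc3a stood above Sqstm1 in EYFP IP, at 349 ± 42.4 and 260 ± 26.4, with no overlap, and in hTyr IP, at 358 ± 55.9 and 302 ± 37.4. The level of Map1lc3b depends on the length used: its principal transcript has 2532 bases, and its exons in the GENCODE basic annotation together 5182. Over the latter its level in EYFP IP was 64.7 CPM per kilobase, at an unchanged place in the order.

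**Figure D1:**
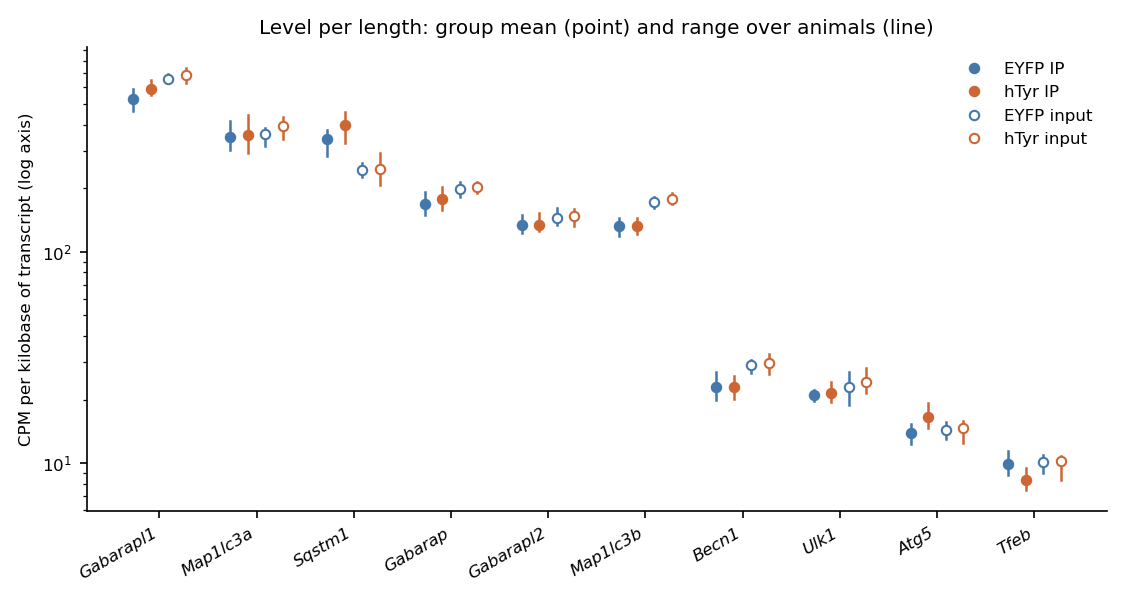
Level of each member in CPM per kilobase of principal transcript (log axis) in the 4 groups, with the group mean as a point and the range over animals as a line. Gabarapl1 lies above all other members in each group, and Tfeb lies lowest, at 9.96 CPM per kilobase in EYFP IP and 8.29 in hTyr IP.

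Within the ATG8 family, Gabarapl1 made up 42.4% ± 1.57 of the summed level per kilobase in hTyr IP (SD, n = 5) and 40.4% ± 1.36 in EYFP IP (SD, n = 6). The shares in input were 42.6% ± 0.937 and 42.8% ± 0.680. The LC3 branch together held 35.2% ± 1.26 in hTyr IP and 36.6% ± 1.12 in EYFP IP. These shares were not tested between groups. The family's coding sequences are alike but not near identical, with 76.5% identical aligned bases between Map1lc3a and Map1lc3b, 74.9% between Gabarap and Gabarapl1 and 53.4% to 63.8% for the other pairs, and the longest identical run between any pair has 17 bases. Reads can be shared elsewhere: 8.80% of the 100-base windows of the Map1lc3b transcript and 9.57% of those of Gabarapl2 also occur in processed pseudogenes.

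The comparison of hTyr with EYFP in IP asks whether the autophagy genes changed in the RNA pulled down from noradrenergic ribosomes. None of the 10 genes reached an adjusted p under 0.05 (limma, Benjamini-Hochberg over all 12596 genes), and 0.0556% of all genes did. At an unadjusted p under 0.05 the count was 3 of 10, beside 6.19% of all genes. These 3 were Atg5 and Sqstm1, with higher means in hTyr, and Tfeb, with a lower mean. The other 7 genes differed by -0.01 to 0.16 on the log2 scale. The median over the 10 genes was 0.03, beside -0.01 over all genes, and 8 of the 10 estimates were above 0. For each of the 10 genes the values of the groups overlapped, while 0.651% of all genes had groups that did not.

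**Figure D2:**
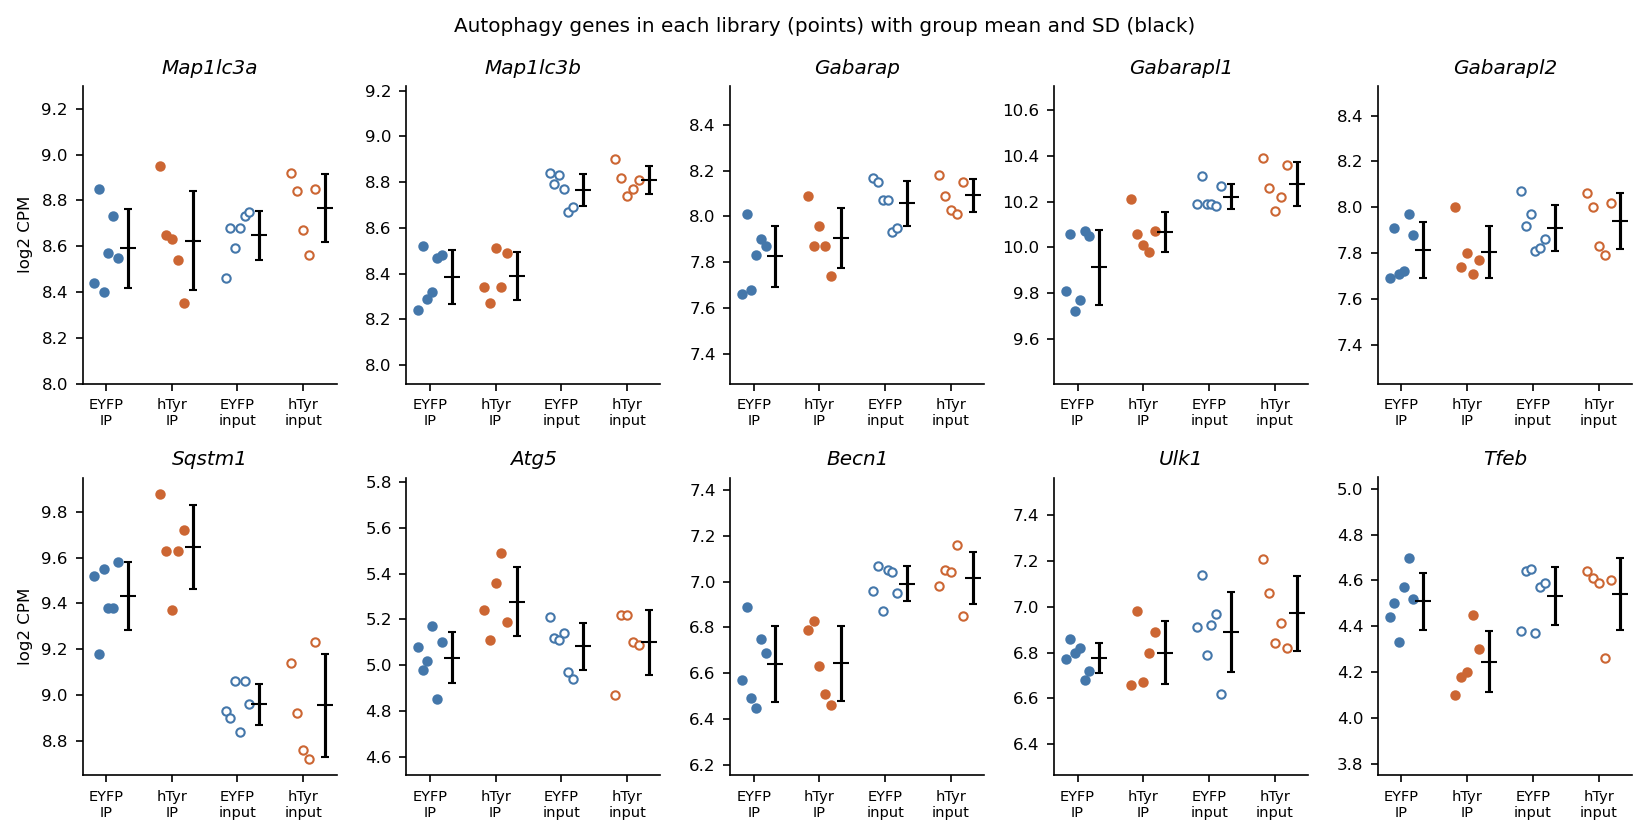
log2 CPM of each member in each library (filled points IP, open points input; blue EYFP, orange hTyr), with the group mean and SD in black; the axes differ in position but span the same 1.3 log2 units. In IP, 4 of 5 hTyr libraries lie above all 6 EYFP libraries for Sqstm1 and Atg5, and 4 of 5 lie below them for Tfeb.

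Among the genes that start autophagy, Ulk1 had values of 6.66, 6.98, 6.67, 6.80 and 6.89 log2 CPM in hTyr IP and 6.68 to 6.86 (median 6.78) in EYFP IP. The EYFP range lay within the hTyr range, and the difference was 0.03 (95% interval -0.138 to 0.192). Becn1 had values of 6.79, 6.83, 6.63, 6.51 and 6.46 in hTyr IP and 6.45 to 6.89 (median 6.63) in EYFP IP. All hTyr values lay inside the EYFP range, and the interval was -0.201 to 0.209. Becn1 is an uncertain value in every comparison here: 41.1% of its transcript's 100-base windows also lie in the antisense gene Cntd1, and whether reads were counted by strand is not given in the sources used here.

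Atg5, which encodes the protein that conjugation joins to Atg12, had the lowest p of the members. Its values in hTyr IP were 5.24, 5.11, 5.36, 5.49 and 5.19 log2 CPM, and in EYFP IP they ran from 4.85 to 5.17 with a median of 5.05. Only IP_502 of the hTyr group fell inside the EYFP range. The difference was 0.25 (SE 0.0914, 95% interval 0.0541 to 0.441; 1.19-fold), with an unadjusted p of 0.0153, an adjusted p of 0.754 in limma and an exact two-sided permutation p of 0.00866 over the 462 splits of 11 animals, of which the smallest possible is 0.00216. In input the same gene had values of 4.87, 5.22, 5.22, 5.10 and 5.09 in hTyr animals and 4.94 to 5.21 in EYFP animals. Of these hTyr values 2 lay above and 1 below all EYFP values, with a difference of 0.02 (95% interval -0.149 to 0.189).

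In the ATG8 family, Gabarapl1 differed most between treatments. Its hTyr IP values were 10.21, 10.06, 10.01, 9.98 and 10.07 log2 CPM, and its EYFP IP values ran from 9.72 to 10.07 with a median of 9.93. All hTyr values lay in or above the upper part of the EYFP range, in which IP_504, IP_506 and IP_507 were low. The difference was 0.16 (SE 0.0919, 95% interval -0.0385 to 0.350; limma adjusted p = 0.835). Gabarap differed by 0.08 (interval -0.101 to 0.262) and Map1lc3a by 0.03 (-0.196 to 0.259). Map1lc3b, the LC3 form most used to count autophagosomes, had values of 8.34, 8.27, 8.51, 8.34 and 8.49 in hTyr IP and 8.24 to 8.52 in EYFP IP, with equal means of 8.39. Its interval, -0.166 to 0.173, reaches from 0.892-fold to 1.13-fold. Gabarapl2 differed by -0.01 (interval -0.179 to 0.166).

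For the cargo receptor Sqstm1, the hTyr IP values were 9.88, 9.63, 9.37, 9.63 and 9.72 log2 CPM. In EYFP IP they ran from 9.18 to 9.58 with a median of 9.45. IP_508 was the only hTyr library inside the EYFP range. The difference was 0.21 (SE 0.0999, 95% interval 0.00269 to 0.425; 1.16-fold), with an unadjusted p of 0.0475, an adjusted p of 0.802 in limma and an exact two-sided permutation p of 0.0584. IP_501 had the highest Sqstm1 value of the IP libraries and the highest mean of noradrenergic markers (7.33 log2 CPM), and with that mean as a covariate the difference was 0.11, while Atg5 stayed at 0.26 and Tfeb at -0.20. Between hTyr and EYFP in IP, 8 of these 9 markers had estimates above 0, with a median of 0.3. This covariate can therefore also take up part of a treatment difference. In input, Sqstm1 had values of 9.14, 8.92, 8.76, 8.72 and 9.23 in hTyr animals and 8.84 to 9.06 in EYFP animals. The hTyr values there spread to both sides of the EYFP range, and the difference was -0.01 (95% interval -0.197 to 0.187).

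Tfeb had the lowest level of the members, with 230 to 375 reads per library in hTyr IP and 359 to 499 in EYFP IP. Its hTyr IP values were 4.10, 4.18, 4.20, 4.45 and 4.30 log2 CPM, and its EYFP IP values ran from 4.33 to 4.70 with a median of 4.51. IP_509 was the only hTyr library inside the EYFP range. The difference was -0.26 (SE 0.0989, 95% interval -0.474 to -0.0557; 0.832-fold), with an unadjusted p of 0.0162, an adjusted p of 0.759 in limma and an exact two-sided permutation p of 0.0130. In input the difference was 0.01 (95% interval -0.182 to 0.194), and Pre_509, at 4.26, was the low value of a group whose other libraries stood at 4.59 to 4.64. Of the 5 hTyr animals, the animal of IP_509 and Pre_509 was the only one with more Tfeb in IP than in input.

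In input, none of the 10 genes passed the adjusted threshold (0.00794% of all genes did) and none had an unadjusted p under 0.05 (3.03% of all genes). Their differences ran from -0.01 to 0.12 on the log2 scale, with SEs of 0.0574 to 0.0913. The highest was that of Map1lc3a, at 0.12 (95% interval -0.0404 to 0.282). No member had groups that did not overlap, beside 0.175% of all genes.

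**Figure D3:**
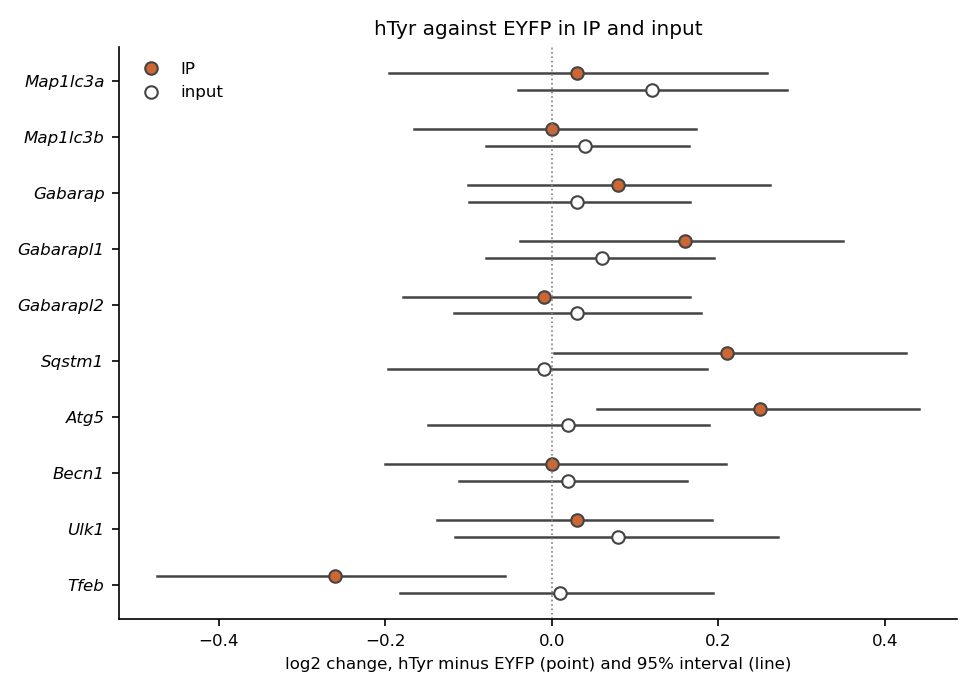
Difference between hTyr and EYFP in log2 units (point) with its 95% interval from limma (line) for each member, in IP (filled) and input (open). Only the IP intervals of Sqstm1, Atg5 and Tfeb leave out 0, and none of the 10 genes passes the adjusted threshold.

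Whether the treatment difference itself differed between IP and input was tested over all 22 libraries. Again 0 of 10 genes passed the adjusted threshold (0.00794% of all genes), and 1 of 10 had an unadjusted p under 0.05 (3.31% of all genes). That gene was Tfeb, at -0.27 (95% interval -0.534 to -0.00886; unadjusted p = 0.0433, limma adjusted p = 0.996). Atg5 stood at 0.23 (95% interval -0.0142 to 0.470) and Sqstm1 at 0.22 (-0.0627 to 0.501). The IP differences of these 3 genes are therefore not shown to be separate from those in input. The IP and input libraries of an animal are not independent, and with the animal as a replicate block all 3 adjusted p-values were 0.71.

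The comparison of IP with input asks which of these RNAs were more or less abundant in the pulled-down fraction. Its main fits treated the libraries of an animal as unpaired. Sqstm1 was higher in IP in both treatments, and Map1lc3b, Becn1 and Gabarapl1 were lower in both. In EYFP animals 1 member was higher, beside 28.5% of all genes, and 4 were lower, beside 28.1%. In hTyr animals 1 member was higher, beside 27.4% of all genes, and 4 were lower, beside 27.0%. The median change over the 10 genes was -0.11 in EYFP and -0.18 in hTyr animals, beside -0.03 and -0.04 over all genes. In each treatment 3 members had IP and input values that did not overlap, beside 30.1% of all genes in EYFP and 37.5% in hTyr animals. In such bulk fractions a different share of cells and a different amount of RNA per cell cannot be told apart.

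**Figure D4:**
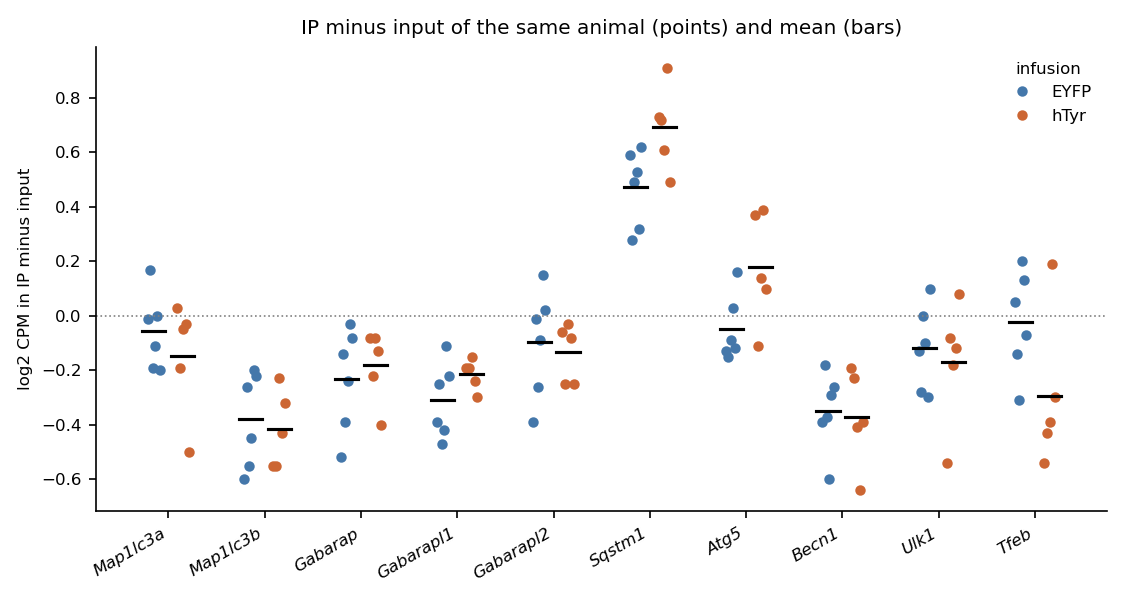
log2 CPM in IP minus input of the same animal for each member, for 6 EYFP (blue) and 5 hTyr animals (orange), with the mean as a bar. All 11 animals lie above 0 for Sqstm1 and below 0 for Map1lc3b, Gabarap, Gabarapl1 and Becn1.

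The rise of Sqstm1 was present in 11 of 11 animals. Within an animal it was 0.73, 0.72, 0.61, 0.91 and 0.49 log2 units in the hTyr group, and 0.28 to 0.62 (median 0.51) in the EYFP group. The ranges of the treatments overlapped between 0.49 and 0.62. The fitted change was 0.47 in EYFP animals (SE 0.0761, 1.39-fold, adjusted p = 8.34e-05) and 0.69 in hTyr animals (SE 0.113, 1.61-fold, adjusted p = 7.82e-05; limma). The lowest IP value of each treatment, 9.18 and 9.37 log2 CPM, was above its highest input value, 9.06 and 9.23. Of the 100-base windows of the principal Sqstm1 transcript, 0% lie in another gene. In the full GENCODE annotation, however, 17.3% of the Sqstm1 exon bases overlap the antisense gene Mrnip.

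Map1lc3b fell in 11 of 11 animals. The change was between -0.55 and -0.23 in hTyr animals and between -0.60 and -0.20 in EYFP animals. The fitted changes were -0.38 (SE 0.0663, adjusted p = 0.000171) and -0.42 (SE 0.0768, adjusted p = 0.000228; limma) in EYFP and hTyr animals, and IP and input did not overlap in either. Map1lc3a, its closest relative by sequence, changed by -0.06 and -0.15, with 95% intervals of -0.230 to 0.116 and -0.369 to 0.0760. In the GABARAP branch, Gabarapl1 fell by 0.31 (SE 0.0780, adjusted p = 0.00300) and by 0.21 (SE 0.0843, adjusted p = 0.0416; limma). Gabarapl1's call in hTyr animals was lost without any of the 5 animals (adjusted p 0.0522 to 0.109), although its value was -0.229 to -0.191, and 16.3% of its transcript's windows also lie in the antisense gene 1700101I11Rik. With quantile normalization Gabarapl1 stood at -0.46 in EYFP and at -0.38 in hTyr animals (adjusted p = 0.000192 and 0.000409 in limma). Gabarap fell by 0.23 in EYFP animals (SE 0.0722, adjusted p = 0.0123), a call that was lost without the animal of IP_504 or that of IP_506 (adjusted p 0.0679 and 0.0560). In hTyr animals Gabarap stood at -0.18 with an adjusted p of 0.0630, and with the replicate block at 0.0437 (limma). It also passed in hTyr animals with quantile normalization (adjusted p = 0.0461), with the length and GC trend removed (0.0335, or 0.0119 with the block as well) and without the animal of IP_501 (0.0410). Gabarapl2 stood at -0.10 and -0.13 and passed in neither, but with the length and GC trend removed it stood at -0.21 and -0.28 (adjusted p = 0.0159 and 0.00803 in limma).

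Becn1 was lower in IP in 11 of 11 animals, at -0.35 in EYFP (SE 0.0762, adjusted p = 0.00101) and -0.37 in hTyr animals (SE 0.0908, adjusted p = 0.00241; limma). After removal of the dependence on transcript length and GC content within each library, the values were -0.53 and -0.64. Ulk1 stood at -0.12 and -0.17 and Atg5 at -0.05 and 0.18, and neither passed in either treatment. Tfeb was at -0.02 in EYFP animals (95% interval -0.195 to 0.151) and at -0.29 in hTyr animals (SE 0.109, adjusted p = 0.0304; limma). That call was lost without the animal of IP_501, IP_502, IP_508 or IP_510 (adjusted p 0.0718 to 0.121). With the length and GC trend removed the Tfeb value was 0.02, against 0.18 in EYFP animals. That removal also brought Gabarapl2 past the threshold in both treatments, at -0.21 and -0.28, and Atg5 in EYFP animals, at -0.20.

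The members stand among 101 genes of 11 lists by role in autophagy, of which 98 were in the table. Between treatments in IP, 0 of the 98 passed the adjusted threshold (limma) and 11 had an unadjusted p under 0.05, of which 7 were higher in hTyr, beside 0.0556% and 6.19% of all genes. Lysosomal genes known as Tfeb targets had 14 of 14 estimates at or above 0, with a median of 0.11 and a range of 0.00 to 0.19, while Tfeb itself stood at -0.26. In IP, 1 of the 14 had an unadjusted p under 0.05 in limma. In input the same list had a median of 0.04, with 12 of 14 estimates above 0. The median over all genes was -0.01 in both IP and input. Lists of this kind were described and not tested, and their genes share the libraries.

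Between IP and input, 34 of the 98 genes were higher and 18 lower in EYFP animals, and 36 and 14 in hTyr animals. Of all genes, 28.5% were higher and 28.1% lower in EYFP animals, and 27.4% and 27.0% in hTyr animals. Of the 8 cargo receptors, 5 were higher in both treatments, namely Sqstm1, Nbr1, Optn, Tax1bp1 and Ncoa4. Tax1bp1, a receptor for ubiquitinated cargo, was higher by 0.92 (SE 0.112) in EYFP and by 1.32 (SE 0.133) in hTyr animals. Ncoa4, the receptor that delivers ferritin to lysosomes, was higher by 0.86 and 1.00, Nbr1 by 0.67 and 0.60 and Optn by 0.35 and 0.41. Wdfy3, a large scaffold for aggregates, was lower, at -0.22 and -0.28. The ATG8 family was the list with 0 members higher in either treatment.

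**Figure D5:**
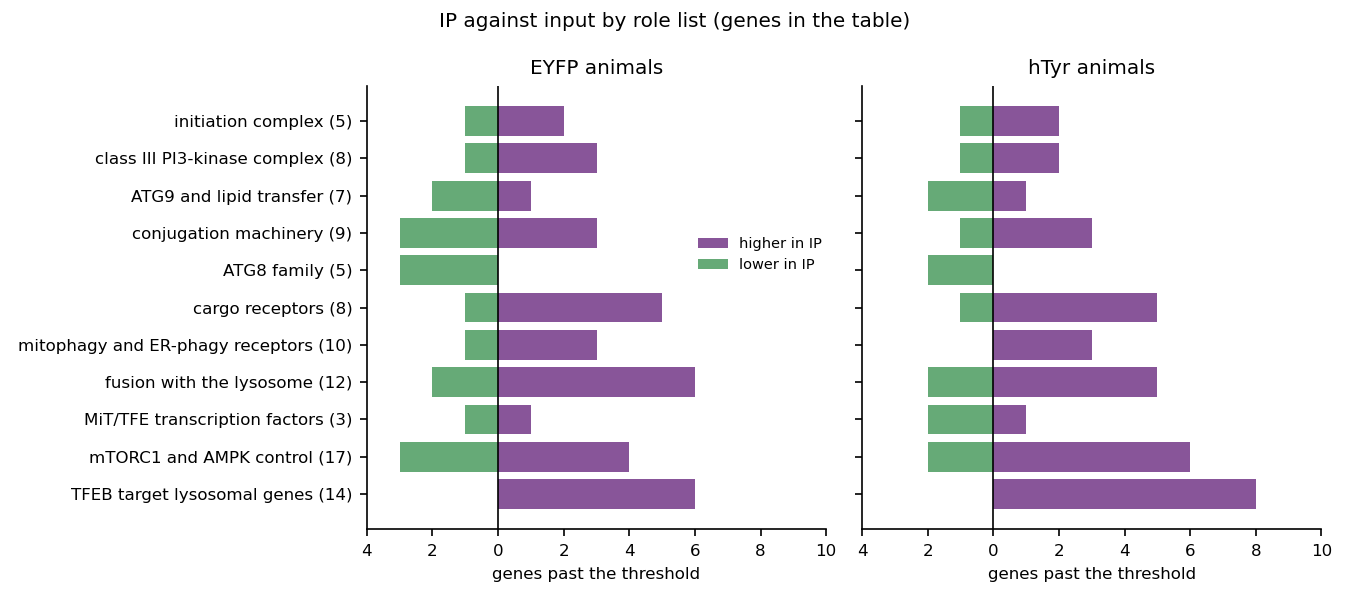
Number of genes of each role list higher (right) or lower (left) in IP than in input at an adjusted p under 0.05, in EYFP and hTyr animals, with the number of the list's genes in the table in brackets. Cargo receptors have 5 of 8 genes higher in both treatments and the ATG8 family has none, beside 28.5% of all genes higher in EYFP and 27.4% in hTyr animals.

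Other genes of the pathway differed between IP and input in both directions. Of the Ulk1 partners, Rb1cc1, the scaffold of the initiation complex, was higher by 1.44 (SE 0.145) in EYFP and 1.88 (SE 0.137) in hTyr animals, while Atg13 was lower, at -0.21 and -0.20. Of the Becn1 partners, the kinase complex subunit Pik3r4 was higher by 0.86 and 0.67. Of the genes that act with Atg5, Atg7, the activating enzyme of the conjugation, was higher by 0.53 and 0.99, and the protease gene Atg4d was lower, at -0.23 and -0.35. The lipid transfer gene Atg2b was higher by 0.56 and 0.45 and the lipid-binding Wipi1 lower, at -0.44 in both. Of the relatives of Tfeb, Mitf was higher by 0.34 and 0.57 and Tfe3 lower, at -0.29 and -0.27. For lysosomal fusion, Vps16 was higher by 0.69 in both and Plekhm1 lower, at -0.40 in both. In the nutrient-sensing list, Rraga, a small GTPase that brings mTORC1 to the lysosome, was higher by 1.07 and 1.22 and Fnip2 lower, at -0.39 and -0.34. Sec62, a receptor for endoplasmic reticulum, was higher by 0.44 and 0.59. The proton pump gene Atp6v1h, from the list of Tfeb targets, was higher by 1.41 and 1.59.

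The genes most like the 3 members with the lowest p between treatments were found from the deviations of the 22 libraries from their group means. For Atg5 they were Dstn (Pearson's r = 0.813), Ptprk (0.802) and Tcaim (0.795). For Sqstm1 they were Prpf19 (0.895), Acot7 (0.883) and Ass1 (0.877). For Tfeb they were Aifm3 (0.765), Spr (0.760) and Nxt1 (0.748). These r values describe libraries that share animals and depth, and the 3 named are the highest among the table's other genes with a full gene name.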

How the data were processed

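RNA was sequenced in IP and input libraries of 11 mice, made by a service company per the labels. The submitters' processing notes name STAR, featureCounts and mm10. The authors deposited a table of log2 values, whose unit was settled from the values: log2 CPM with a pseudocount averaging 2 reads. All 277112 values gave whole reads within 0.01 read, which sets the depth. Each comparison used limma 3.58.1 in R 4.3.3 (trend in the prior variance) on all 12596 genes, adjusted by Benjamini-Hochberg, with a threshold of 0.05; functions were tested on simulated data. Exact permutation tests covered the 462 splits of the animals. The replicates are separate animals per their numbers, no libraries were identical, and the labels give no batch. IP and input of an animal deviated together (mean r 0.448 over 11 animals, lowest 0.279, -0.0428 between animals), so the animal numbers pair them. The main fits of IP against input and of the interaction left this pairing out, and the animal as a replicate block was another setting. With the block, the genes called between IP and input went from 7123 to 8133 in EYFP animals and from 6853 to 7440 in hTyr animals. GENCODE annotation of GRCm38 gave lengths and loci, with lengths for 12380 genes; levels per kilobase use the principal transcript, a choice made after the data were seen, where the plan named the longest or a reference table's length. Promoters came from RefSeq. The members and lists were chosen with earlier results of these data known. Named besides the members were, per list, the gene with the largest rise and with the largest fall in IP against input among those past the threshold in both treatments, and Th, Dbh and Slc6a2; the further cargo receptors were named after their values were seen. Likeness names the 3 genes of highest r for the 3 members with the lowest p. Figures were drawn with Python 3.11.15.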

Additional observations from a re-analysis of the deposited data

Results flagged for a closer look

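In the input libraries of hTyr animals, Tfeb had a library far from the others. Pre_509 stood at 4.26 log2 CPM, the nearest of the other 4 libraries at 4.59, and this gap was 0.862 of the group's range. Of 40 groups of members and libraries examined in this way, 1 was of this kind, and chance gives about 2.0.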

How the results depend on the processing

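Of 850 values of single genes under other settings, 758 kept their direction and their side of the threshold, 11 newly passed it, 11 no longer passed it and 70 changed sign, none of them a called change except that of Tfeb between IP and input in hTyr animals. No member passed the adjusted threshold between treatments, or in the interaction, under any setting run. Between treatments in IP, the sign changed for Map1lc3b (-0.0066) and Becn1 (-0.0036) with quantile normalization, for Becn1 (-0.024) with the length and GC trend removed, for Gabarapl2 (0.0071) with the glial markers as covariate, and for Map1lc3a (-0.0040) and Becn1 (-0.033) with the noradrenergic markers as covariate. Removal of the length and GC trend, with or without the replicate block, turned the sign of Map1lc3a (0.061), Ulk1 (0.11) and Tfeb (0.18) between IP and input in EYFP animals, of Map1lc3a (0.10), Atg5 (-0.046), Ulk1 (0.14) and Tfeb (0.025) in hTyr animals, and of Map1lc3a (0.041), Map1lc3b (0.0046) and Ulk1 (0.032) in the interaction. It turned that of Tfeb between treatments in input too (-0.035), and took the interaction of Tfeb to -0.16. The causes were not tested. Leaving out an animal gave ranges that cross 0 between treatments in IP for Map1lc3a (-0.051 to 0.10), Map1lc3b (-0.026 to 0.033), Gabarapl2 (-0.056 to 0.025), Becn1 (-0.043 to 0.053) and Ulk1 (-0.017 to 0.061). The same held in input for Gabarapl2 (-4.9e-05 to 0.069), Sqstm1 (-0.075 to 0.053), Atg5 (-0.011 to 0.078), Becn1 (-0.011 to 0.066) and Tfeb (-0.027 to 0.077). It held between IP and input in EYFP animals for Tfeb (-0.067 to 0.036), and in the interaction for Gabarap (-0.0093 to 0.10), Gabarapl2 (-0.095 to 0.011), Becn1 (-0.072 to 0.046) and Ulk1 (-0.11 to 0.042). Without an animal, 2 to 3 members in place of 4 were lower in IP in hTyr animals (2 without the animal of IP_502, IP_508 or IP_510). The replicate block changed a call of the members only for Gabarap in hTyr animals (adjusted p = 0.0437 in limma). Over all genes, the 7 called between treatments in IP became 14 with a spread shared over all libraries, 4 with the noradrenergic covariate and 3 to 11 without an animal. The 1 called in input became 0 to 2, and the 1 called in the interaction became 4 with the length and GC trend removed, 5 with the replicate block, 6 with both and 0 to 5 without an animal. Without correction for length, 5 members kept their place in the order of levels in hTyr IP, 3 in EYFP IP and 6 in each input group. Per length of the longest transcript, 10 kept it in EYFP IP and 8 in each other group. Over all exons of the GENCODE basic annotation, 6 kept it in hTyr IP and in each input group and 10 in EYFP IP. This length was chosen after seeing the data. Tfeb and Atg5 rest on the fewest reads, from 230 and 440 per library upward.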
